A study of Rattus norvegicus with 2 samples.

Results

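The 33 gene symbols described here name amino acid solute carriers and were taken from 15409 symbols measured in RBL-2H3 cells. They are all symbols that begin with Slc1a, Slc3a, Slc6a, Slc7a, Slc36a, Slc38a or Slc43a and a number, whatever their values. Of these, 32 name carriers or carrier subunits, and 1, Slc7a6os, names a gene on the opposite strand beside Slc7a6 that is not a carrier. RBL-2H3 is a rat basophilic leukaemia line that serves as a mast cell model. One library, called saline below, is labelled as treated with normal saline. The other, called treated, is from cells that received PM2.5 (fine particulate matter), IgE and the antigen DNP-HSA. The antigen binds the IgE and so crosslinks the IgE receptor on the cell surface. The title of the treated sample holds PM100, and the labels give neither a unit for this number nor times. They do not state if IgE and antigen were also added to the saline cells. The particles and the receptor stimulus therefore cannot be told apart. Each group is 1 library, so differences have no replicate check and the conditions could not be tested against each other.

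Cells take up amino acids through carriers that differ in substrate and in driving force. The SLC1 members measured here and most of SLC38 carry small neutral amino acids with sodium. SLC7 light chains join an SLC3 heavy chain, which brings them to the cell surface, and exchange one amino acid for another. The SLC6 members measured here carry glycine, taurine, creatine, betaine, GABA or monoamines with sodium and chloride, and SLC36 members move amino acids with protons, in part out of lysosomes. When amino acids run short, translation factor eIF2 is phosphorylated and the transcription factor ATF4 is made, which switches on a subset of these carriers together with enzymes of amino acid synthesis. One of them, Slc7a11, imports cystine for glutathione synthesis and is also a target of the antioxidant factor NRF2.

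Values are normalised counts, which are reads divided by a size factor of the library and summed over the transcripts of a symbol. Folds are log2 of the treated over the saline value, each with 1 added. Brackets hold exact 95% Clopper-Pearson intervals of the ratio, which cover counting error only. A member is called higher or lower if it differs by at least 2-fold and reaches a normalised count of 1 in at least 1 library. There were 7279671 reads in the saline and 3964955 in the treated library, so that 1 read was worth a normalised count of 0.867 in the former and 1.65 in the latter. The mast cell genes Kit, Gata2, Fcer1a, Fcer1g, Ms4a2, Hdc, Cpa3 and Srgn, 8 of 10 on that marker list, had at least 175 reads each in both libraries. Of the markers of T or B cells and of neurons or glia none was listed. The 3 listed fibroblast markers summed to 19 and 17 reads in the saline and the treated library, and the 1 listed epithelial marker had 11 and 12. The 4 listed macrophage markers summed to 1696 and 426 reads, of which Csf1r, the receptor of the growth factor CSF1, had 1401 and 286, and Cd68 had 19 and 0. The part of these markers in the results was not tested.

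Most carriers were lower in the treated library, but few by 2-fold. Of the 33 members, 8 were lower by the size rule and 3 higher, and over all symbols 19.1% were lower and 12.1% higher. Among these 11 were 4 with 0 reads in 1 library that came short of 2-fold against a floor of 3 reads. At least 20 reads over both libraries were found for 26 members, and of these 4 were lower (Slc6a9, Slc6a13, Slc7a1 and Slc6a12) and 1 was higher (Slc38a6). Of all symbols with that many reads, 10.9% were lower and 7.89% higher. A fold below 0 was found for 21 of the 26 members, or 80.8%, against 53.1% of all such symbols. The median fold of the 26 was -0.57, and that of all such symbols -0.06. Counting intervals lay below 0 for 20 of the 26, above 0 for 3 and across 0 for 3. Of all 11479 such symbols, they lay below 0 for 3748, above 0 for 3196 and across 0 for 4535. Summed over the 33 members, the normalised count was 24556 in the saline and 16085 in the treated library. Symbols that begin like solute carriers of other families also lay mainly below 0, with 113 of 163 (69.3%) below 0 and a median of -0.38. They were taken by name and include Slc9a3r1, Slc9a3r2 and Slc4a1ap, which are not carriers. Of those 163, 33 (20.2%) were lower by the size rule and 6 (3.68%) higher, so folds below 0 were frequent there too.

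**Figure D1:**
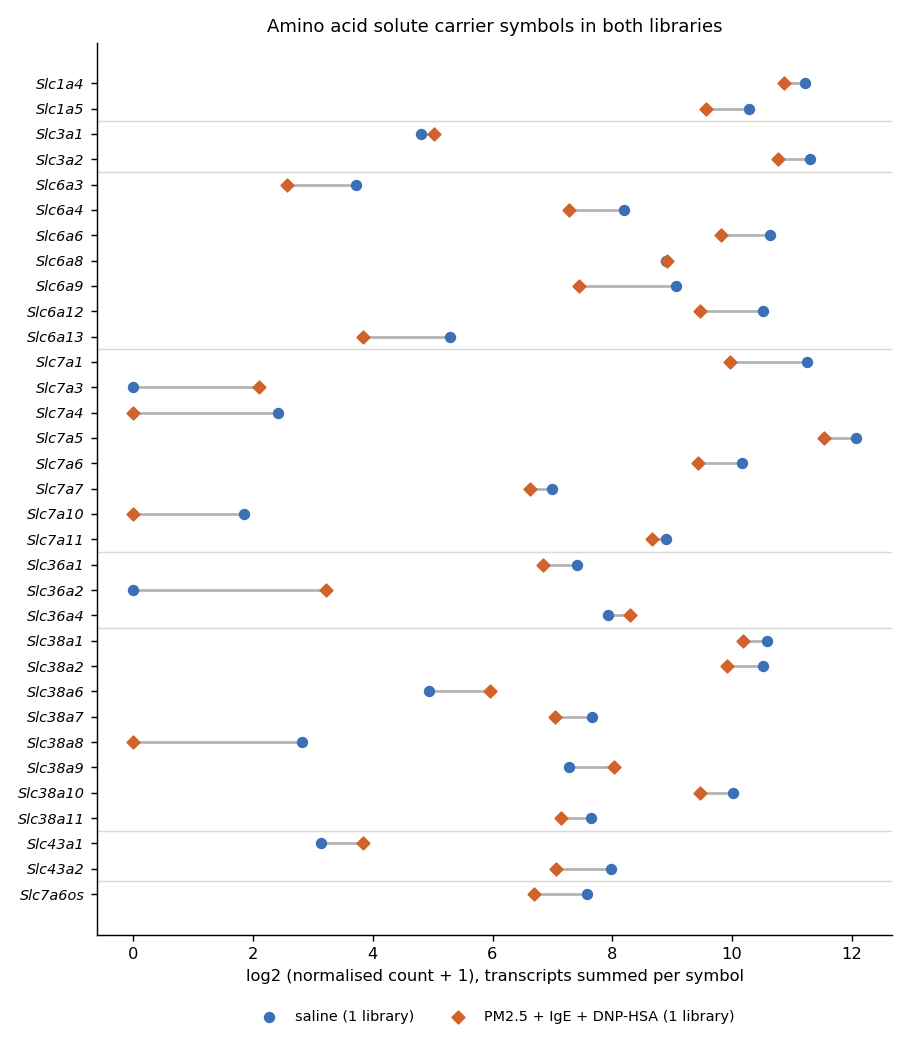
Log2 of the normalised count plus 1 (x axis) of each of the 33 members (y axis, ordered by family with Slc7a6os last), with a blue circle for the saline and an orange diamond for the treated library, 1 library each. The diamond lies left of the circle for 25 members, and the widest gaps belong to symbols with 0 reads in 1 library.

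Both subunits of the LAT1 exchanger were lower within 2-fold, by almost the same fold. Slc3a2 (ENSRNOG00000018487), the 4F2 heavy chain, had a normalised count of 2514 in the saline and 1741 in the treated library. Its fold was -0.53 (-0.63 to -0.43). Slc7a5 (ENSRNOG00000018824), the LAT1 light chain that brings in large neutral amino acids such as leucine, stood at 4312 and 2965, a fold of -0.54 (-0.62 to -0.46). The folds of both subunits thus lay within each other's counting intervals. Slc7a6, the y+LAT2 light chain that exchanges cationic for neutral amino acids, had 1148 and 685 (-0.74, -0.91 to -0.58). Its neighbour Slc7a6os had 189.9 and 102.4 (-0.88, -1.32 to -0.48). Whether the counting used strand is not given, so reads where these neighbours overlap could have been given to either. Slc7a7, the y+LAT1 light chain, had 127 and 97.4, and its interval held 0 (-0.37, -0.84 to 0.07).

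With transcripts summed, Slc7a11 (ENSRNOG00000010210), the xCT light chain, was nearest to 0 of the SLC7 members with at least 20 reads. It had a normalised count of 475 in the saline and 405 in the treated library, from 548 and 245 reads. Its fold was -0.23 (-0.46 to -0.012). Without transcripts at 0 reads in 1 library, Slc7a1 was nearer to 0, at 0.16. Slc3a1, the rBAT heavy chain of the cystine and basic amino acid exchanger, had few reads (31 and 19) and a fold of 0.22 whose interval held 0 (-0.68 to 1.09). Slc7a10, the Asc-1 light chain, had 3 reads in the saline library and 0 in the treated one, which gives no fold.

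The cationic amino acid transporter Slc7a1 (ENSRNOG00000000924), which carries arginine, lysine and ornithine, was lower when its transcripts were summed. It had 2431 in the saline and 1001 in the treated library, a fold of -1.28 (-1.41 to -1.15). That difference lay in 1 of its 3 listed transcripts. ENSRNOT00000089804 had 1763 reads in the saline and 0 in the treated library. With 3 reads in place of the 0 it was 309-fold lower, and its counting interval reached up to -7.97. ENSRNOT00000001234 stood at 896 and 1001, a fold of 0.16 (0.013 to 0.31). With ENSRNOT00000001234 alone, Slc7a1 was on the other side of 0, so the direction for the gene depends on whether ENSRNOT00000089804 is included. Among the 7973 transcripts that reached a normalised count of 100 in the saline library, 144 (1.81%) had 0 reads in the treated one. Of those that reached 100 in the treated library, 0.815% had 0 in the saline one. The related Slc7a3 had 0 and 2 reads and Slc7a4 5 and 0, too few for a fold.

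Both sodium-dependent SLC1 members were lower within 2-fold. Slc1a4 (ASCT1), which carries alanine, serine and cysteine, had 2387 in the saline and 1865 in the treated library (-0.36, -0.46 to -0.26). Slc1a5 (ASCT2), the glutamine exchanger, had 1245 and 758 (-0.72, -0.87 to -0.56). The intervals of these 2 related carriers did not overlap.

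SLC38 members lay on both sides of 0. The system A carriers Slc38a1 and Slc38a2, which take up glutamine and alanine at the cell surface, were both lower within 2-fold. Slc38a1 had 1529 and 1158 (-0.40, -0.53 to -0.27), and Slc38a2 had 1461 and 961 (-0.60, -0.74 to -0.47). Slc38a7, a lysosomal glutamine carrier, had 202 and 130 (-0.63, -1.02 to -0.26). Slc38a10 had 1039 and 705 (-0.56, -0.72 to -0.40), and Slc38a11 had 199 and 140.4 (-0.50, -0.88 to -0.14). In contrast to these 5, Slc38a9 and Slc38a6 were above 0. Slc38a9, the lysosomal arginine sensor upstream of mTORC1, had 154 in the saline and 259 in the treated library (0.75, 0.44 to 1.07). Slc38a6 had 29.5 and 61.1 from 34 and 37 reads (1.03, 0.34 to 1.77) and was under 2-fold when the library totals were made equal (0.97) or 5 was added in place of 1 (0.94). Slc38a8 had 7 and 0 reads. With 3 reads in place of the 0 it was 1.23-fold lower, but its counting interval held 0, with an upper end of 0.40.

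The proton-coupled carriers of SLC36 also went both ways. Slc36a1 (PAT1), found on lysosomes, had 170 in the saline and 114 in the treated library (-0.57, -0.99 to -0.17). Slc36a4 (PAT4) had 241 and 312 (0.37, 0.098 to 0.64). Slc36a2 (PAT2) had 0 and 5 reads. With 3 reads in place of the 0 it was 3.17-fold higher, and the lower end of its interval was 0.80. The 3 members with at least 20 reads whose counting interval lay above 0 were thus Slc38a6, Slc38a9 and Slc36a4. In SLC43, which carries large neutral amino acids without sodium, Slc43a2 (LAT4) had 252 and 132 (-0.92, -1.30 to -0.57). Slc43a1 (LAT3) had 9 and 8 reads, and its interval reached from -0.82 to 2.31.

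**Figure D2:**
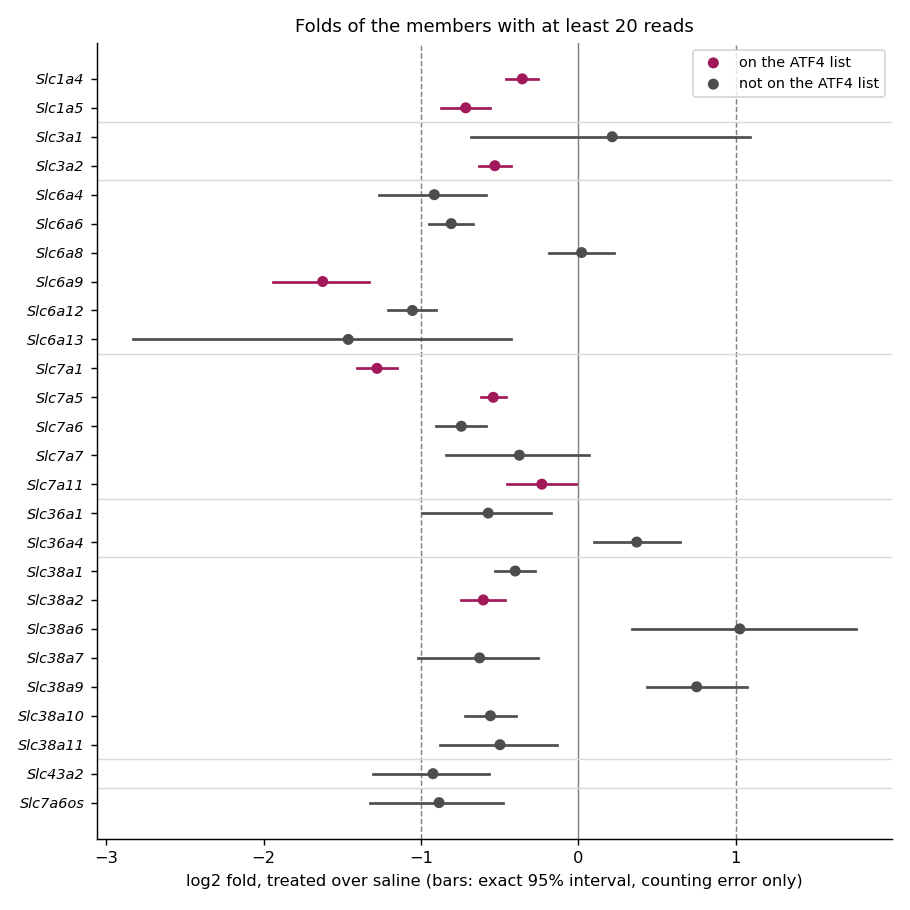
Log2 fold of the treated over the saline library (x axis) for the 26 members with at least 20 reads (y axis, by family), with exact 95% intervals as bars and dashed lines at 2-fold. The 8 members on the list of ATF4-driven carriers, in purple, all lie left of 0, and Slc6a9, Slc6a12, Slc6a13 and Slc7a1 lie left of the dashed line.

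SLC6 had the lowest median of the families with at least 5 members. Of its 7 members 4 were lower by the size rule, against 19.1% of all symbols, among them Slc6a3 with 14 and 3 reads and an interval across 0. Of the 6 with at least 20 reads 3 were lower, against 10.9% of all such symbols. Over members with at least 20 reads the median fold was -0.98 in SLC6 (6 members), -0.54 in SLC7 (5 members) and -0.50 in SLC38 (7 members). Slc6a9 (ENSRNOG00000019484), the glycine transporter GlyT1, had 537 in the saline and 173 in the treated library. Its fold of -1.62 (-1.94 to -1.33) was the lowest of all members with at least 20 reads. Slc6a12 (BGT1), which carries betaine and GABA, had 1469 and 707 (-1.05, -1.21 to -0.90). It was at -0.99 when the median of all symbols was set to 0. Its 2 listed transcripts differed alike, with folds of -1.08 and -1.02. Slc6a13 (GAT2), a close relative, had only 44 and 8 reads (-1.46, -2.83 to -0.43). Reads of these related genes could be split between them.

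The taurine transporter Slc6a6 (ENSRNOG00000009019) was lower within 2-fold as a sum of transcripts, at 1579 and 902 (-0.81, -0.95 to -0.67). Its 2 listed transcripts lay on opposite sides of 0. ENSRNOT00000086982 stood at 1052 in the saline and 233 in the treated library (-2.17, -2.44 to -1.92). ENSRNOT00000012875 stood at 527 and 669 (0.34, 0.16 to 0.53). The first made up 66.6% of the symbol's normalised count in the saline and 25.8% in the treated library. It was the one transcript of these carriers among the 57 in the authors' deposited table of selected mRNAs. None of the transcripts the authors deposited, this one included, had a low adjusted p-value. The authors' p-values rest on 1 library per group.

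Among the other SLC6 members the serotonin transporter Slc6a4, long studied in this cell line, had 291 and 154 (-0.92, -1.27 to -0.58). The dopamine transporter Slc6a3 had 14 and 3 reads, and although its fold of -1.14 passed the size rule its interval held 0 (-3.73 to 0.55). The creatine transporter Slc6a8 was level, at 475 and 482 (0.021, -0.19 to 0.23), and was at -0.03 with the library totals made equal.

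Several transcripts were listed for 7 of the 33 members. Beside Slc7a1, Slc6a6 and Slc6a12, each of the other 4 (Slc1a5, Slc36a1, Slc38a1 and Slc6a9) had 1 transcript with over 90% of its normalised count in both libraries. Opposite transcripts were common in these libraries. Of 849 symbols with several transcripts at a normalised count of at least 100, 326 (38.4%) had transcripts on opposite sides of 0 with at least 1 of them past 2-fold.

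**Figure D3:**
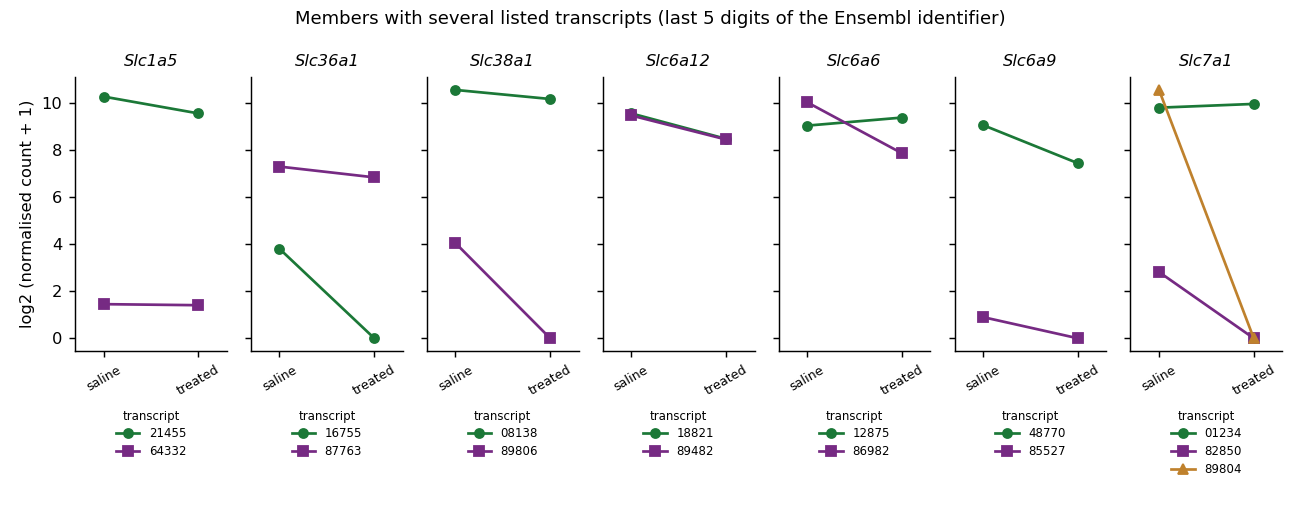
Log2 of the normalised count plus 1 (y axis) of each listed transcript in the saline and treated library (x axis), for the 7 members with several transcripts. Lines of Slc6a12 run together, those of Slc6a6 cross, and ENSRNOT00000089804 of Slc7a1 goes from 1529 to 0 while ENSRNOT00000001234 stays near its level.

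Carriers that ATF4 is known to drive were compared with the remaining members. The list held 10 carriers, of which 8 had at least 20 reads: Slc6a9, Slc7a1, Slc1a5, Slc38a2, Slc7a5, Slc3a2, Slc1a4 and Slc7a11. All 8 had folds below 0, against 53.1% of all symbols with that many reads. Their counting intervals also lay below 0, against 3748 of all 11479 such symbols. By the size rule Slc6a9 and Slc7a1 were lower, against 10.9% of these symbols. Without ENSRNOT00000089804, which had 0 reads in the treated library, Slc7a1 was at 0.16 and so above 0. The median of the 8 was -0.57. The 18 members outside the list with at least 20 reads had the same median, -0.57, with 13 of 18 below 0. With transcripts summed, Slc7a11 was the ATF4-listed carrier with the highest fold of the 8, and Slc6a9 the one with the lowest.

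Promoter windows of ATF4-listed and other carriers were searched for the letters TGATGNAA, the form of the element bound by ATF4 with C/EBP proteins, and TGACNNNGC, the core of the antioxidant response element bound by NRF2. Both strands were read, and no match of one motif overlapped a match of the other in a member's window. RefSeq windows (GRCr8) of 250 bases before to 50 after the annotated start were found for 26 members, with 27 windows in all. Slc3a2 had more than 1, of which 1 held neither motif. A member was counted if any window of it held the motif. Slc1a5, Slc38a10, Slc38a11, Slc6a13, Slc6a4, Slc7a3 and Slc7a4 had no window. TGATGNAA was in the windows of 3 members (Slc7a1, Slc1a4 and Slc38a1) and in 3.98% of all 33469 windows. Of the 8 ATF4-listed carriers with a window, 2 held it, Slc7a1 and Slc1a4, while Slc38a1 is not on that list. TGACNNNGC was in those of 8 members (Slc36a1, Slc38a2, Slc38a8, Slc3a1, Slc3a2, Slc6a6, Slc7a1 and Slc7a7) and in 12.1% of all windows. It was held by 3 of the 8 ATF4-listed carriers with a window (Slc38a2, Slc3a2 and Slc7a1). The median GC content of the 250 bases was 58.8% in these members and 51.2% over all windows. The 250 bases before the start are shown for the 3 carriers with TGATGNAA and for Slc7a11, which held neither motif, for comparison. Capitals mark the motif matches, and each sequence reads 5′ to 3′ on the strand of the gene.
Slc7a1 (chr12:11664238-11664487, plus strand): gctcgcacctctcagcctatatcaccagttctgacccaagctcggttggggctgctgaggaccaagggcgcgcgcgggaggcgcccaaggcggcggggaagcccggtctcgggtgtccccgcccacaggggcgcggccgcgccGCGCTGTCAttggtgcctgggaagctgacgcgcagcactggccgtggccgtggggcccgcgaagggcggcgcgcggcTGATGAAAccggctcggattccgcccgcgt
Slc1a4 (chr14:98761563-98761812, minus strand): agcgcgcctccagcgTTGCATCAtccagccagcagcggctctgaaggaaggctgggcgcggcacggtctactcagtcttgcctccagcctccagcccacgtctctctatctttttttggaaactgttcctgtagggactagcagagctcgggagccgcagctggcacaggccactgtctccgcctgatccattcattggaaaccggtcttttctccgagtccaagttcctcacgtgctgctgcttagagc
Slc38a1 (chr7:129681402-129681651, minus strand): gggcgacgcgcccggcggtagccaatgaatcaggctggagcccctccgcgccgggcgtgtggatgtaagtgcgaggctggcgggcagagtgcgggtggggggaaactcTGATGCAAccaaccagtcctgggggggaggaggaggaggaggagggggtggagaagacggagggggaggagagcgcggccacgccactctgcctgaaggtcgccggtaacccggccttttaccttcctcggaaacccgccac
Slc7a11 (chr2:136668265-136668514, minus strand): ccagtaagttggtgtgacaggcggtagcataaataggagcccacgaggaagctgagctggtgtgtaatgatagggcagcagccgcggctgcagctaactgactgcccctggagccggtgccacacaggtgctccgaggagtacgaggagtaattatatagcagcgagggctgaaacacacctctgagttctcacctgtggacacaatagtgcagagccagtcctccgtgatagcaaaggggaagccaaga
Counted back from the base before the start as -1, the match was TGATGAAA at -30 to -23 in Slc7a1, TGATGCAA at -142 to -135 in Slc38a1 and TTGCATCA, on the other strand, at -235 to -228 in Slc1a4. In Slc7a1 the other capitals, GCGCTGTCA at -107 to -99, are the TGACNNNGC match on the other strand. A match is only a run of letters in this window. The folds of these 3 carriers were -1.28 (Slc7a1), -0.40 (Slc38a1) and -0.36 (Slc1a4), and that of Slc7a11 was -0.23. Slc7a1 was at 0.16 without ENSRNOT00000089804. Of the 26 members with at least 20 reads, 21 were below 0, and a link of motif and fold was not tested.

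The ATF4 targets that are not carriers lay on the same side. Of 25 measured, 6 were lower by the size rule, against 19.1% of all symbols, and 1, Vldlr, passed it as higher on 0 and 2 reads, too few for a fold. All 6 were among the 24 with at least 20 reads, where 10.9% of all symbols were lower. Of these 24, 23 were below 0, against 53.1% of all symbols with that many reads, and the median was -0.52. Chac1, which degrades glutathione, had 1490 reads in the saline and 82 in the treated library (-3.24, -3.59 to -2.93). Stc2 and Sesn2, the latter a leucine sensor that restrains mTORC1, were at -3.02 (-4.47 to -2.03) and -2.21 (-2.45 to -1.98). Trib3, Ddit4 and Atf3, named here after their values were seen because they complete the 6, were at -1.69, -1.53 and -1.03. None of the 8 ATF4-listed carriers was as low as Chac1, Stc2 or Sesn2. The transcript of Atf4 itself was at -0.48 (-0.56 to -0.40). Asns, the asparagine synthetase, was the one above 0, at 0.098 (0.026 to 0.17).

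Medians of 4 other gene sets tied to amino acid supply lay between -0.13 and 0.044 over genes with at least 20 reads, beside -0.06 for all such symbols. By the size rule 19.1% of all symbols were lower and 12.1% higher, or 10.9% and 7.89% of those with at least 20 reads. All 20 cytosolic aminoacyl-tRNA synthetases, which load tRNAs, were within 2-fold, with a median of -0.13, from Cars at -0.74 to Dars at 0.63. In the cystine and glutathione pathway 1 of 18, the sulfiredoxin Srxn1 (-1.79, -3.27 to -0.73), was lower by the size rule and none was higher, with a median of -0.045. The subunits of the enzyme that starts glutathione synthesis from the cysteine that Slc7a11 supplies were at -0.31 (Gclc, named after its value was seen) and 0.48 (Gclm). For amino acid sensing at the lysosome, 1 of 19 measured genes passed the size rule, Tfeb with 10 and 0 reads. With 3 reads in place of the 0 it was 1.75-fold lower, short of 2-fold, and its interval reached up to -0.235. The median of the 18 with at least 20 reads was 0.044, with Nprl3 lowest at -0.98 and Fnip1 highest at 0.82. Among the 10 eIF2 kinases, eIF2B subunits and eIF2 alpha, Eif2ak2, the kinase PKR, was the one past 2-fold, at 1.80 (1.37 to 2.27). Of 13 amino acid carriers outside these families, 2 were higher by the size rule, against 12.1% of all symbols, and none was lower, against 19.1%. The 2 were the lysosomal histidine and peptide carrier Slc15a3 (90 and 184 reads, 1.95, 1.59 to 2.34) and Slc16a10 (0 and 5 reads). The 12 of the 13 with at least 20 reads had a median of -0.43, with 7 of 12 below 0.

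**Figure D4:**
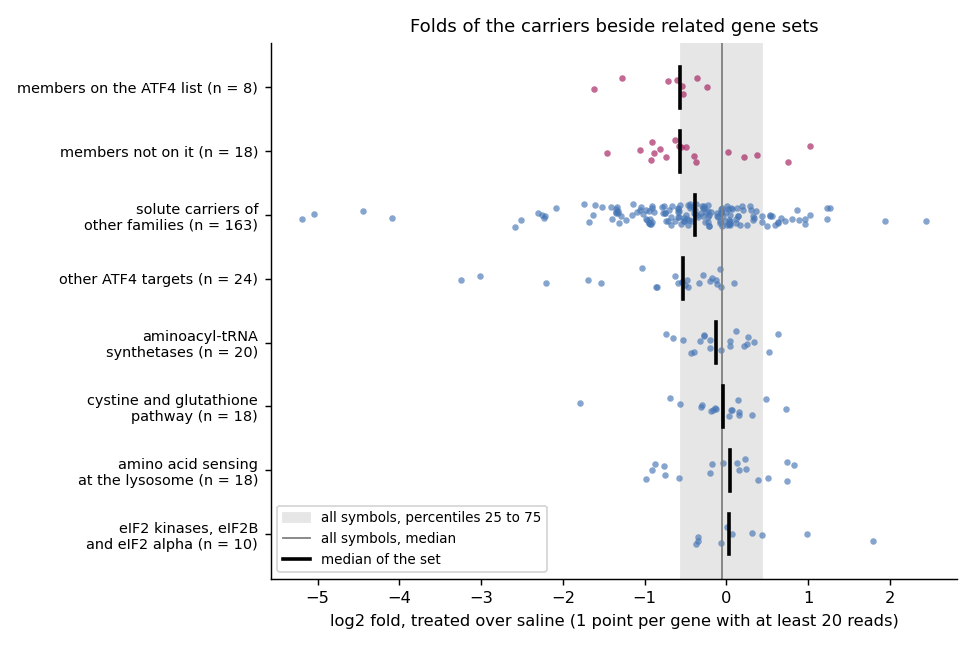
Log2 fold of the treated over the saline library (x axis), 1 point per gene with at least 20 reads, for the carriers in purple and 6 related sets in blue (y axis), with each set's median as a black bar and percentiles 25 to 75 of all 11479 such symbols in grey. Both groups of carriers have their medians at -0.57, the other ATF4 targets at -0.52 and the aminoacyl-tRNA synthetases at -0.13.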

How the data were processed

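Strand-specific TruSeq libraries of total RNA were sequenced from RBL-2H3 cells, 1 library per group, per the labels' protocols. The tools in the submitters' processing notes are STAR 2.5, DESeq 1.22.1, Cuffnorm and FastQC, with no roles; the sources used here give no build, annotation or counting settings. What the authors deposited per transcript is a log2 value x. In both libraries 100% of 2 to the power x, less 1, came to whole multiples of 1 step (tolerance 1e-06), which gave size factors of 1.15 (saline) and 0.605 (treated) and the reads. The authors' deposited p-values were used only as listed. A further 4 columns repeating per-sample values were not used. Transcripts were summed by symbol; 1276 without a symbol entered only transcript counts.

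The members and gene lists were chosen with earlier results of these data known. Every member is accounted for, those with at least 20 reads with values; of other lists the 3 largest differences each way and the 3 highest means could be named. Fcer1a, Fcer1g, Gclc, Vldlr, Trib3, Ddit4 and Atf3 fall outside that rule and were named after their values were seen. Where a library had 0 reads, the ratios given allow it 3 reads and take the reads of the other library as exact. The interval widths in the report show the precision that the read numbers give. The procedure was tested on simulated Poisson counts for 15409 symbols. Of these, 200 with a mean of at least 50 were changed by a log2 fold of 1.5, and 98.5% of them were recovered. The true ratio lay in 95.8% of the intervals of symbols with at least 20 reads. Poisson error is what the intervals assume, so differences between cultures, and calls on fewer reads, were not tested. No count model was run, since each group has 1 library. Alternatives were other pseudocounts, filters, scalings and transcript choices. Software was Python 3.11.15 with SciPy 1.17.1, pandas 2.3.3, NumPy 2.4.6 and Matplotlib 3.10.9.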

Additional observations from a re-analysis of the deposited data

How the results depend on the processing

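With 1 library per group, leaving out a replicate was not possible. No paired analysis was possible because each group has 1 library. The median fold of the members, -0.57 over 33 as deposited, ranged from -0.63 to -0.50 over 11 alternatives, of which 3 kept fewer members (28 with a filter of 10, 26 with at least 20 reads and 28 without transcripts at 0 reads in 1 library). The counts by the size rule, 3 higher and 8 lower, rested in part on few reads. They were 1 and 5 with a pseudocount of 5, 1 and 5 under a filter of 10 on the normalised count, 1 and 4 with at least 20 reads, and 1 and 4 without transcripts at 0 reads in 1 library, an alternative chosen after seeing the data. The count of ATF4-driven carriers that were lower, 2, was 1 with the isoform of highest mean level alone and 1 without transcripts at 0 reads in 1 library. In both, Slc7a1 was at 0.16, on the other side of 0; the cause is that ENSRNOT00000089804, with 0 reads in the treated library, is left out or not the transcript taken. Slc6a6 was at -2.17 with the isoform of highest mean level alone. Of 286 values under alternatives of the 26 members with at least 20 reads, 283 stayed within their counting interval. Many of these were fixed in advance, so this number does not measure stability. Filters, and the choice of protein-coding transcripts, could not change a fold of these members. The other transcript choices could not change a member with 1 transcript. Scalings moved the median of all symbols by at most 0.07. Without transcripts at 0 reads in 1 library, 9.64% of all symbols were lower and 10.2% higher, against 19.1% and 12.1% as deposited.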
